A study of Danio rerio with 10 samples.

Results

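The transcriptome of zebrafish embryos homozygous for an out-of-frame rpgrip1l allele (rpgrip1l-/-) was followed from 2 to 5 days post fertilization (dpf). Of the 10 libraries of the series, 6 entered this comparison, chosen by genotype and age as labelled: 2 of rpgrip1l-/- at 5 dpf, set against 4 of rpgrip1l-/- at 2 dpf, of which 2 came from embryos with a curled-down tail (CDT) and 2 from embryos with a normal-looking tail. All 3 mutant groups carried the same CRISPR/Cas9 allele and came from crosses between homozygous mutant parents, so maternal Rpgrip1l was also affected in each of them. The 2 WT libraries at 5 dpf and the 2 at 2 dpf, from crosses of the AB strain, served only to ask whether the change with age differed by genotype. The parents differed along with the genotype. Titles of the WT libraries read rpgrip1l wild-type at 2 dpf and wild-type at 5 dpf, and whether this marks a different source cannot be told from them. Every library was a pool of 30 to 35 whole embryos, and the libraries of a group were the replicates. Nothing in the labels says whether the 5 dpf mutants were sorted by their tail, or at what time of day each age was collected, so age and harvest cannot be told apart.

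Rpgrip1l is a protein of the ciliary transition zone (TZ), the gate at the base of the cilium that controls which proteins enter it, and its loss causes ciliopathies in humans. Between these ages a zebrafish hatches, uses up most of its yolk and becomes a swimming larva that sees, balances and is about to feed. Neural progenitors leave the cell cycle and make synapses, photoreceptors build outer segments, and pancreas, liver and gut begin to secrete and absorb.

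The mutant libraries held 9101264 to 14022070 counts on genes. On the first principal component of all 10 libraries, WT included, the 2 mutant libraries at 5 dpf lay apart from the 4 at 2 dpf. It was computed on log2 CPM scaled by TMM over all 10 libraries and carried 78.8% of their variance. On the second component (9.46%) the genotypes lay further apart at 2 dpf than at 5 dpf. At 2 dpf WT lay at −58.7 and −65.4 and the mutants at 27.65 to 31.1. At 5 dpf WT lay at −10.4 and −3.53 and the mutants at 7.78 and 12.5. Unless stated otherwise, CPM are gene counts per library total, scaled by TMM over the 6 mutant libraries. No library was a copy of its replicate, since their counts varied 2.71 to 7.28 times as much as sampling alone gives. The labels say only that replicates were separate libraries of pooled embryos, so p-values measure the spread between such pools. Of 20597 genes tested by quasi-likelihood in edgeR, 3698 rose (18.0%) and 2189 fell (10.6%), each by at least 2-fold and with a Benjamini-Hochberg adjusted p under 0.05. Without the 2-fold minimum, 13023 genes (63.2%) passed. The median log2 fold change was −0.005. In 14376 genes (69.8%) the libraries of the 2 ages did not overlap, so a lack of overlap was the common case. List counts below are to be read beside the shares of all genes, 18.0% risen and 10.6% fallen. A gene is said below to have risen or fallen only if it passed both criteria; all values are CPM, replicate 1 before replicate 2, and all fold changes are 5 dpf over the mean of both 2 dpf mutant groups. The 5 dpf libraries had TMM scaling factors of 0.860 and 0.866, against 1.06 to 1.09 at 2 dpf. Scaled by library size alone, the median of all genes was −0.32 and the split turned to 2807 genes higher and 3913 lower, 41.8% higher against 62.8% with TMM, so small changes in the text are relative to the TMM median. In these pools, fewer cells of a type and less RNA per cell cannot be told apart.

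**Figure D1:**
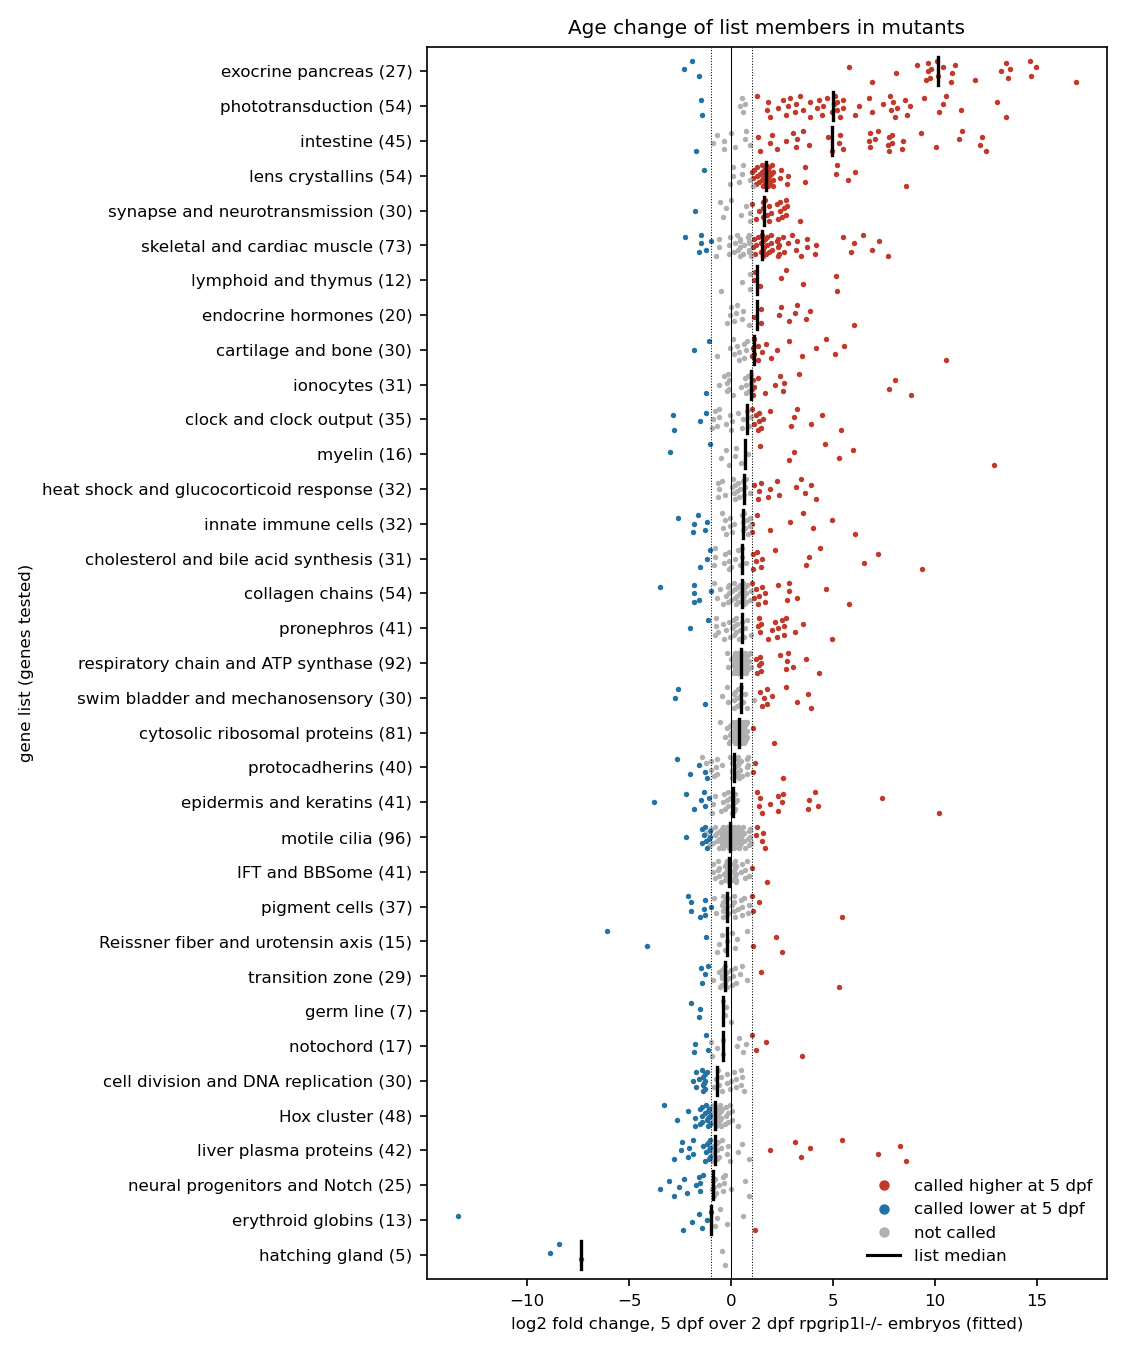
Age change of every tested member of the 35 gene lists in rpgrip1l-/- embryos. The x axis is the fitted log2 fold change of 5 dpf over 2 dpf, each point is 1 gene, coloured by whether it rose, fell or was not called, black ticks are list medians, and dotted lines mark 2-fold. Exocrine pancreas (median 10.12) and hatching gland (median −7.35) lie at the ends, and cilia lists lie near 0; folds of genes without counts at an age depend on edgeR's prior count.

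The targeted gene was measured at low depth. rpgrip1l (ENSDARG00000051754) had 11 and 24 counts in the 5 dpf mutants, against 36 and 18 in CDT and 22 and 27 in normal-looking mutants at 2 dpf. The ages overlapped, and its log2 fold change of −0.43 (SE 0.38) did not pass (edgeR, Benjamini-Hochberg adjusted p = 0.33). WT had 21 and 22 counts at 5 dpf and 20 and 26 at 2 dpf, within the range of the mutants, so the level of this transcript does not check the genotype. An out-of-frame allele need not lower its transcript.

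The hatching programme had gone from the 5 dpf mutants. he1.1, a hatching enzyme that digests the egg envelope, had 0.582 and 2.55 CPM in the 5 dpf mutants, against 595 and 576 CPM in CDT and 517 and 539.8 CPM in normal-looking mutants at 2 dpf. Every 5 dpf value was below every 2 dpf value, and the log2 fold change was −8.46, SE 0.21, with a Benjamini-Hochberg adjusted p of 1.17e-18 (edgeR). Its copy he1.2 had 0.915 and 0.494 CPM at 5 dpf against 112.5 to 126.5 CPM at 2 dpf, and ctslb, a cathepsin L of the hatching gland, was without counts at 5 dpf, at least 18.3-fold lower than at 2 dpf. These were the 3 of 5 tested hatching gland genes that fell, and 0 rose. The other 2 are broad secretory genes: XBP1, a regulator of secretory capacity, had 391 and 310.2 CPM at 5 dpf against 451 to 499.6 CPM at 2 dpf, and AGR2 had 143 and 123 CPM at 5 dpf against 144.5 to 188 CPM at 2 dpf. The list median was −7.35, or −4.19 with ctslb set at its bound.

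An embryonic globin was among the 10 largest falls. hbbe3, an embryonic beta globin, had 0 and 0.0823 CPM in the 5 dpf mutants, against 512 and 548 CPM in CDT and 638 and 518 CPM in normal-looking mutants at 2 dpf. That is 1 count against 28966, a ratio of 13200 with a 95% counting interval of 2370 to 522000. zgc:174154, ENSDARG00000068947 and si:dkey-269i1.4 were without counts at 5 dpf and at least 282-fold, 228-fold and 201-fold lower than at 2 dpf. zgc:174855 was left with 1 count at 5 dpf against 2301 at 2 dpf. ctslb.4 (log2 fold change −7.91) and ctsll (−7.10), both named as cathepsin L genes, and afp4 (−7.33) complete the set with he1.1 and he1.2. Reads that fit several near-identical copies, as in the he1, hbae, ctrb, prss59 and crygm2d families, could have been left out of the counts. Low or absent counts in these families carry that limit.

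Most alpha globins fell less steeply. Of 13 tested erythroid genes 7 fell and 1 rose, with a median of −1.01. hbae3, an embryonic alpha globin, had 723 and 817 CPM in the 5 dpf mutants, against 1664 and 1736 CPM in CDT and 1425 and 1381 CPM in normal-looking mutants at 2 dpf (log2 fold change −1.005, SE 0.08). hbae5 went the other way, with 205 and 203.5 CPM at 5 dpf against 73.9 to 112 CPM at 2 dpf. Both genes separated the ages without overlap. The haem synthesis enzyme alas2 (38.6 and 54.7 CPM at 5 dpf, 64.5 to 95.2 CPM at 2 dpf) and gata1a, the erythroid transcription factor (3.24 and 3.21 CPM at 5 dpf, 1.82 to 2.495 CPM at 2 dpf), did not pass.

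Several genes of mitosis fell, and the MCM helicase genes of DNA replication were not called. Of 30 tested cell division genes, 13 fell and 0 rose (median −0.70). CCNB1, the mitotic cyclin B1, had 17.9 and 18.4 CPM in the 5 dpf mutants, against 68.3 and 61.9 CPM in CDT and 66.6 and 68.2 CPM in normal-looking mutants at 2 dpf. The groups did not overlap, and its log2 fold change, −1.87, SE 0.10, was the steepest of the list (edgeR, Benjamini-Hochberg adjusted p = 5.09e-13). plk1 (−1.75), kif11 (−1.59), mki67 (−1.38), TOP2A (−1.32), CDK1 (−1.29) and CCNA2 (−1.20), which drive or mark passage through mitosis, all fell. RRM2, which makes deoxynucleotides, also fell (−1.43), whereas the replication clamp PCNA had 294 and 321 CPM at 5 dpf against 379.7 to 463 CPM at 2 dpf and did not reach 2-fold. The replicative helicase subunits MCM7 (105 and 117 CPM at 5 dpf, 60.9 to 89.6 CPM at 2 dpf) and MCM2 (69.4 and 79.7 CPM at 5 dpf, 40.4 to 61.4 CPM at 2 dpf) were above their 2 dpf values in both 5 dpf libraries, each by less than 2-fold. This separation rests on TMM scaling and does not hold by library size alone.

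Several neurogenic genes of the Notch pathway fell, and SOX2 and GFAP of neural stem cells were not called. In Notch signalling, Delta ligands on a cell becoming a neuron keep its neighbours as progenitors through her/hes repressors. Of 25 tested genes 11 fell and 0 rose (median −0.91). neurog1, a proneural transcription factor, had 1.996 and 1.56 CPM in the 5 dpf mutants, against 14.0 and 14.9 CPM in CDT and 16.6 and 14.3 CPM in normal-looking mutants at 2 dpf (log2 fold change −3.06, SE 0.20). The Delta ligand dlb had 18.9 and 18.4 CPM in the 5 dpf mutants, against 102 and 101 CPM in CDT and 120 and 111 CPM in normal-looking mutants at 2 dpf (−2.54, SE 0.10). Neither gene overlapped between ages. The repressors her4.2 (−2.15), her15.1 (−1.70) and her4.1 (−1.55), the proneural gene NEUROD4 (−2.32) and 1 of the 2 NOTCH1 copies (−1.56, ENSDARG00000052094) also fell. By contrast, the Delta ligand DLD had 275 and 272.5 CPM at 5 dpf against 146 to 154 CPM at 2 dpf and GFAP, of radial glia, 198.5 and 212 CPM at 5 dpf against 119 to 139 CPM at 2 dpf, both above their 2 dpf values by less than 2-fold. SOX2, a stem cell factor, overlapped between ages (65.4 and 63.2 CPM at 5 dpf, 62.2 to 70.6 CPM at 2 dpf).

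Hox genes, which set position along the body axis, fell wherever called: 19 of 48 tested fell and 0 rose (median −0.80). hoxb6b had 5.57 and 4.94 CPM in the 5 dpf mutants, against 18.2 and 25.2 CPM in CDT and 23.5 and 23.5 CPM in normal-looking mutants at 2 dpf, and hoxc1a had 2.08 and 2.88 CPM at 5 dpf against 13.1 to 18.5 CPM at 2 dpf. Both separated the ages. HOXB9 (20.8 and 15.8 CPM at 5 dpf, 50.3 to 55.2 CPM at 2 dpf) and HOXB3 (25.8 and 24.3 CPM at 5 dpf, 52.4 to 56.8 CPM at 2 dpf) fell as well, while the posterior genes hoxa13b (7.98 and 5.02 CPM at 5 dpf, 3.91 to 7.24 CPM at 2 dpf) and HOXC11 (5.49 and 5.43 CPM at 5 dpf, 4.53 to 6.11 CPM at 2 dpf) overlapped between ages. Of 7 tested germ line genes 3 fell and 0 rose (median −0.38): DDX4, the RNA helicase Vasa, with 0.416 and 0.494 CPM at 5 dpf against 1.24 to 2.43 CPM at 2 dpf, NANOS3, a translational repressor, with 0.416 and 1.07 CPM at 5 dpf against 1.44 to 2.94 CPM at 2 dpf, and gra. NANOS3 (−1.07) and gra (−0.97) each lost the call without 1 library, 5 dpf replicate 1 for NANOS3 and 5 dpf replicate 2 for gra. In PIWIL1, TDRD6, TDRD9 and tdrkh, of the small RNA pathway of germ cells, the ages overlapped.

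The notochord list held genes of both directions. Of 17 tested 4 rose (23.5%, against 18.0% of all genes) and 4 fell (23.5%, against 10.6%), with a median of −0.39. Those that fell included tbxta, the T-box factor of the early notochord, with 3.41 and 2.96 CPM in the 5 dpf mutants, against 10.18 and 10.5 CPM in CDT and 10.4 and 13.2 CPM in normal-looking mutants at 2 dpf. cmn, a coat protein of the notochord sheath, had 11.5 and 13.2 CPM at 5 dpf against 18.1 to 39.9 CPM at 2 dpf, and col8a1a 9.23 and 6.17 CPM at 5 dpf against 20.3 to 35.8 CPM at 2 dpf. ENTPD5, needed for mineralization, rose to 12.1 and 10.4 CPM at 5 dpf, against 0.618 to 1.26 CPM at 2 dpf, as did ntd5 (1.72), MIA (1.22) and COL9A2 (1.02). The 2 copies of SHH, the secreted signal of the notochord and floor plate, were not called.

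**Figure D2:**
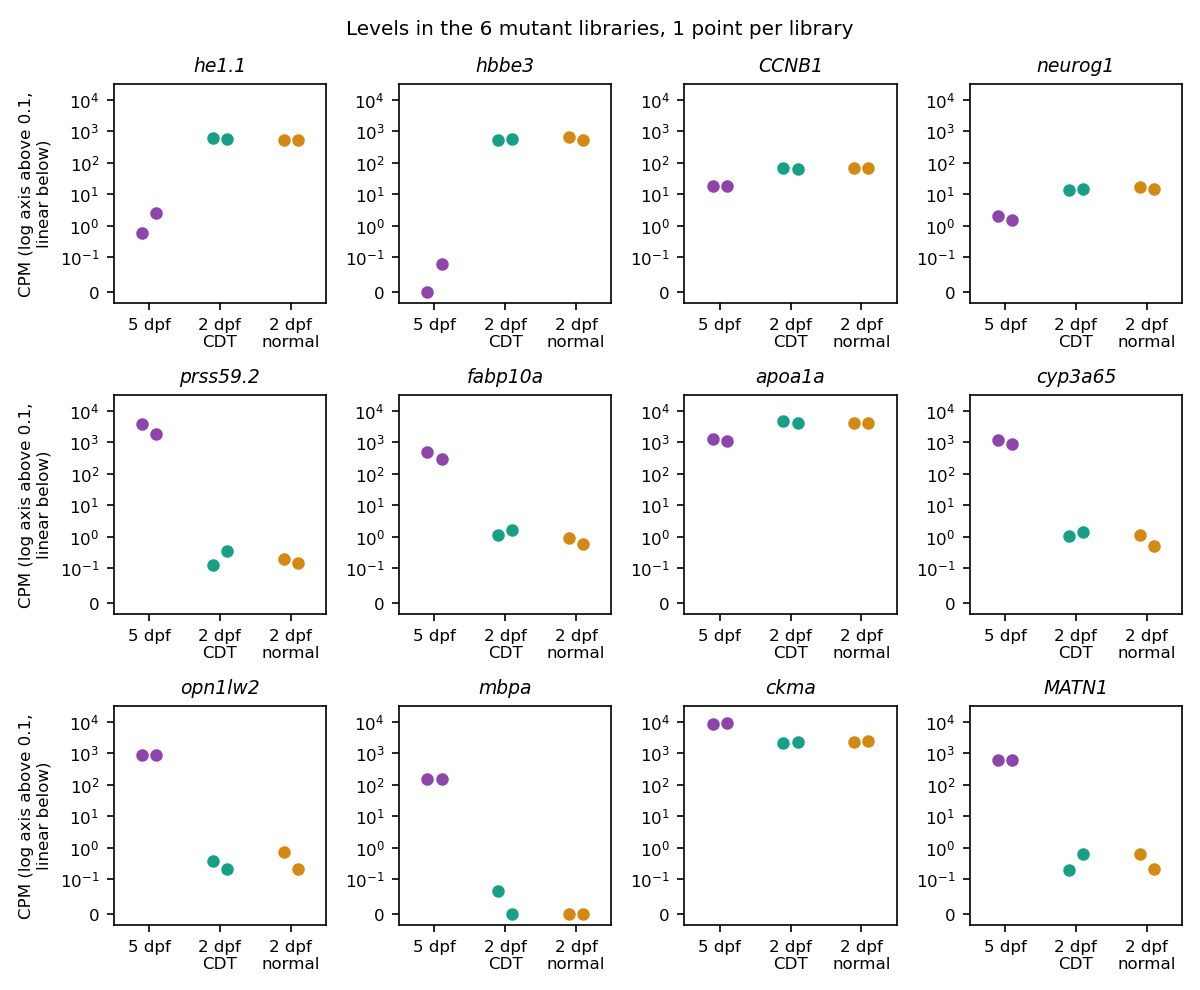
Levels of 12 genes in the 6 mutant libraries, 1 point per library; the y axis is CPM, logarithmic above 0.1 and linear below, and groups are 5 dpf, 2 dpf CDT and 2 dpf normal-looking tail. In each panel both 5 dpf points lie above all 2 dpf points (prss59.2, fabp10a, cyp3a65, opn1lw2, mbpa, ckma, MATN1) or below them (he1.1, hbbe3, CCNB1, neurog1, apoa1a).

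The exocrine pancreas gave the steepest rise. Its acinar cells make the digestive proteases, lipases and amylase. Of 27 tested genes 24 rose and 3 fell (median 10.12, or 9.64 with the 7 genes without counts at 2 dpf set at their bounds), and the list took 0.531% to 1.13% of the counts at 5 dpf against 0.00533% to 0.00639% at 2 dpf. prss59.1, a trypsin, had 1661 and 734.5 CPM in the 5 dpf mutants and 0 counts in all 4 libraries at 2 dpf, at least 3880-fold higher. prss59.2 had 3706 and 1795 CPM in the 5 dpf mutants, against 0.131 and 0.350 CPM in CDT and 0.206 and 0.145 CPM in normal-looking mutants at 2 dpf (log2 fold change 13.67, SE 0.28). Both trypsins were thus far apart between ages. amy2a, an amylase, was without counts at 2 dpf and at least 362-fold higher at 5 dpf (150.3 and 73.4 CPM), and SYCN (ENSDARG00000103687), of the zymogen granule membrane, at least 388-fold (164.5 and 75.1 CPM). The chymotrypsins ctrb.3 and ctrb.1 each had 1 count at 2 dpf, with ratios of 34100 (95% counting interval 6120 to 1350000) and 27900 (5000 to 1100000). pdia2, a protein folding enzyme of acinar cells, rose to 124 and 76.7 CPM at 5 dpf, against 1.303 to 2.24 CPM at 2 dpf.

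A transcription factor and a plasma carboxypeptidase were among the 3 genes of the pancreas list that fell. PTF1A, the transcription factor that specifies the pancreas and acts in hindbrain and retina too, had 1.83 and 0.823 CPM in the 5 dpf mutants, against 5.91 and 7.501 CPM in CDT and 6.80 and 6.30 CPM in normal-looking mutants at 2 dpf (log2 fold change −2.31, SE 0.28). CPB2, a carboxypeptidase of plasma in mammals, had 12.5 and 9.22 CPM at 5 dpf against 31.4 to 34.0 CPM at 2 dpf, and amy2al1 0.832 and 1.73 CPM at 5 dpf against 3.98 to 6.17 CPM at 2 dpf. The pools at 5 dpf differed from each other in pancreas: replicate 1 was above replicate 2 in 24 of the 24 risen genes, by a median of 2.23-fold (1.61 to 3.12), against 1975 of all 3698 risen genes. The counts of 24 and 3 were the same without either 5 dpf library. zgc:153968, PRPH2 and crp5 complete the 10 largest rises, all without counts at 2 dpf and at least 375-fold, 359-fold and 333-fold higher at 5 dpf.

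Liver genes went both ways. Of 42 tested genes of the liver and plasma proteins 8 rose and 17 fell (median −0.80), and the list took 1.43% to 1.94% of counts at 5 dpf against 3.57% to 3.97% at 2 dpf. fabp10a, the fatty acid binding protein of hepatocytes, had 483 and 283 CPM in the 5 dpf mutants, against 1.18 and 1.61 CPM in CDT and 0.927 and 0.579 CPM in normal-looking mutants at 2 dpf (log2 fold change 8.56, SE 0.20). TTR, a thyroid hormone carrier, had 60.1 and 37.9 CPM at 5 dpf against 0 to 0.412 CPM at 2 dpf, and GC, the vitamin D carrier, 71.0 and 40.8 CPM at 5 dpf against 0.309 to 2.298 CPM at 2 dpf. These, hpxa, ahsg1, ahsg2, agt and c3a.2 were the genes that rose. Those that fell included apolipoproteins, which in the embryo the yolk syncytial layer also makes, and clotting and complement proteins. apoa1a had 1230 and 1058 CPM in the 5 dpf mutants, against 4580 and 4159 CPM in CDT and 3980 and 3923 CPM in normal-looking mutants at 2 dpf (log2 fold change −1.86, SE 0.08). apoc1 (−2.08), the fibrinogen chains FGB (−1.10) and FGG (−1.17), prothrombin f2 (−1.06) and the complement genes c9 (−2.14), c3a.1 (−2.44) and c5 (−2.78) fell. apoa2 and apoa1b, with 5914 and 3946 CPM and 4780 and 3440 CPM at 5 dpf against 7309 to 8415 CPM and 5899 to 6993 CPM at 2 dpf, were lower by less than 2-fold. Replicate 1 was above replicate 2 in 8 of the 8 risen liver genes, by a median of 1.67-fold, and the 17 that fell became 22 without 5 dpf replicate 1 and 10 without 5 dpf replicate 2.

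The intestine followed the pancreas in direction, with 35 of 45 tested genes higher and 1 lower (median 4.95). cyp3a65, a cytochrome P450 of the gut, had 1157 and 901 CPM in the 5 dpf mutants, against 1.05 and 1.402 CPM in CDT and 1.13 and 0.507 CPM in normal-looking mutants at 2 dpf (log2 fold change 10.04, SE 0.15, edgeR, Benjamini-Hochberg adjusted p = 1.51e-22). FABP6, the ileal bile acid binding protein, had 345 and 429.8 CPM at 5 dpf against 0 to 0.145 CPM at 2 dpf, and the chitinase chia.2 had 629 and 549 CPM at 5 dpf against 0.0657 to 0.206 CPM at 2 dpf. All 3 separated the ages. Several brush border enzymes and carriers rose: the aminopeptidase ANPEP (ENSDARG00000103878; 1 count at 2 dpf, ratio 6200, 95% counting interval 1110 to 245000), the peptide carrier SLC15A1 (8.43, ENSDARG00000044528), the bile acid carrier SLC10A2 (8.35) and VIL1 of the microvillus core (7.75). The alkaline phosphatase alpi.1, also of the brush border, was not called (16.9 and 15.97 CPM at 5 dpf, 14.6 to 18.9 CPM at 2 dpf). FABP2, a marker of the early gut, rose to 785 and 717 CPM at 5 dpf, against 176 to 196.5 CPM already present at 2 dpf. The gene that fell was apoa4a (14.8 and 17.7 CPM at 5 dpf, 42.8 to 66.2 CPM at 2 dpf).

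Genes of bile acid and cholesterol synthesis were called in both directions. Of 31 tested genes of the 2 pathways 13 rose (41.9%, against 18.0% of all genes). The 3 that fell (9.68%, against 10.6%) were a share near that of all genes, and the median was 0.53. CYP7A1, the rate-limiting enzyme of bile acid synthesis, had 54.1 and 46.8 CPM in the 5 dpf mutants, against 0 and 0.0701 CPM in CDT and 0.103 and 0.145 CPM in normal-looking mutants at 2 dpf. CYP8B1 (7.21), cyp27a3 (6.49) and the bile salt export pump ABCB11 (4.36) rose with it, whereas CYP7B1 (−0.37) and slc27a2a (−0.80), also of bile acid synthesis, were not called. In cholesterol synthesis, MSMO1 rose to 46.5 and 47.0 CPM at 5 dpf, against 7.31 to 15.3 CPM at 2 dpf, and HMGCS1 (1.07) rose. IDI1, which makes an isoprenoid building block of this pathway, fell to 67.0 and 68.4 CPM at 5 dpf, against 129.8 to 149 CPM at 2 dpf, and so did the LDL receptor ldlrb (−1.20), whereas its paralogue ldlra rose (3.80).

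Several pituitary and hypothalamic hormones rose, whereas others, and the insulin and glucagon genes, were not called. Of 20 tested hormone genes 11 rose and 0 fell (median 1.27). gh1, growth hormone, had 28.1 and 23.5 CPM in the 5 dpf mutants, against 0.131 and 0.421 CPM in CDT and 0.618 and 0.507 CPM in normal-looking mutants at 2 dpf (log2 fold change 6.02, SE 0.22). POMC, the precursor of ACTH and melanocortins, had 16.5 and 16.8 CPM at 5 dpf against 1.97 to 2.53 CPM at 2 dpf, and CRH, which drives ACTH release, 5.07 and 4.94 CPM at 5 dpf against 0.515 to 1.402 CPM at 2 dpf. These 3 did not overlap between ages. NPY (3.67), oxt (3.23) and thyroglobulin TG (3.13) also rose. Of the pituitary and hypothalamic genes, prl, agrp and pomcb overlapped between ages and were not called, and TSHB rose with overlapping ages. Insulin, ins, had 21.3 and 4.61 CPM in the 5 dpf mutants, against 8.86 and 7.71 CPM in CDT and 9.48 and 10.4 CPM in normal-looking mutants at 2 dpf. Its 5 dpf libraries lay on either side of all 2 dpf libraries, and its log2 fold change of 0.51 (SE 0.31) became −0.98 without 5 dpf replicate 1.

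Photoreceptor genes rose nearly throughout. Rods and cones detect light with opsins, a G protein (transducin), a phosphodiesterase and cyclic nucleotide gated channels held in the outer segment, a modified cilium. Of 54 tested phototransduction genes 48 rose and 2 fell (median 5.00), taking 0.646% to 0.655% of counts at 5 dpf against 0.0244% to 0.0298% at 2 dpf. The long wavelength cone opsin opn1lw2 had 905 and 902 CPM in the 5 dpf mutants, against 0.394 and 0.210 CPM in CDT and 0.721 and 0.217 CPM in normal-looking mutants at 2 dpf (log2 fold change 11.25, SE 0.15). The cone transducin GNAT2 had 621 and 604 CPM at 5 dpf against 1.54 to 1.84 CPM at 2 dpf. Both cone genes separated the ages. PRPH2 (ENSDARG00000038018), which shapes the outer segment discs, was without counts at 2 dpf and at least 359-fold higher at 5 dpf (116 and 106 CPM). Arrestins and kinases that end the light response also rose, among them GRK7 (7.95, ENSDARG00000020602), ARR3 (6.08, ENSDARG00000098475) and saga (5.49). The 2 crx copies, which control these genes, had 45.2 and 41.7 CPM and 23.3 and 22.1 CPM at 5 dpf against 20.8 to 35.8 CPM and 11.5 to 20.4 CPM at 2 dpf, and did not reach 2-fold.

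RPE65, the retinoid isomerase of the visual cycle, split by copy. ENSDARG00000007480 rose to 157 and 198 CPM at 5 dpf, against 4.22 to 5.98 CPM at 2 dpf, whereas ENSDARG00000094752 fell to 18.0 and 18.2 CPM at 5 dpf against 46.4 to 52.2 CPM at 2 dpf and ENSDARG00000054420 to 2.33 and 2.47 CPM at 5 dpf against 5.36 to 7.73 CPM at 2 dpf. The last 2 were the genes of the phototransduction list that fell.

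Lens genes rose by smaller factors. Of 54 tested lens genes, mostly crystallins, the structural proteins of lens fibres, 45 rose and 1 fell (median 1.70), and the list took 3.29% to 3.58% of counts at 5 dpf against 1.21% to 1.39% at 2 dpf. crybb1l2 had 2771 and 3011 CPM in the 5 dpf mutants, against 872 and 1066 CPM in CDT and 972 and 912.5 CPM in normal-looking mutants at 2 dpf (log2 fold change 1.597, SE 0.08). CRYBB1 (2.38) and CRYBA4 (2.05) rose likewise, and crygm2d11 rose further, with 482 and 528 CPM at 5 dpf against 11.2 to 17.52 CPM at 2 dpf. Replicate 1 was above replicate 2 at 5 dpf in only 2 of the 45 risen lens genes, with a median ratio of 0.919. crygmxl1 was the gene that fell (2.91 and 3.87 CPM at 5 dpf, 6.24 to 10.6 CPM at 2 dpf), and the fibre membrane genes lim2.1, lim2.3 and LIM2 (ENSDARG00000015445) were not called.

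Genes of synaptic transmission rose. Of 30 tested 21 rose and 1 fell (median 1.61). GRIN1 (ENSDARG00000025728), an NMDA receptor subunit, had 32.8 and 38.1 CPM in the 5 dpf mutants, against 3.81 and 4.63 CPM in CDT and 3.09 and 2.46 CPM in normal-looking mutants at 2 dpf (log2 fold change 3.38, SE 0.14). SNAP25 (ENSDARG00000058117), a SNARE protein of vesicle release, had 77.7 and 83.4 CPM at 5 dpf against 9.27 to 15.14 CPM at 2 dpf, and sypb, of the synaptic vesicle, 112 and 111 CPM at 5 dpf against 22.7 to 26.0 CPM at 2 dpf. All 3 were apart between ages. GAD1 (ENSDARG00000027419), which makes GABA, rose to 73.0 and 77.3 CPM at 5 dpf against 10.05 to 12.7 CPM at 2 dpf, while its second copy, ENSDARG00000093411, was the gene that fell (0.416 and 0.247 CPM at 5 dpf, 0.854 to 1.47 CPM at 2 dpf), a call lost without 5 dpf replicate 2 (−1.44). The vesicular glutamate carrier SLC17A6 (ENSDARG00000041150; 21.3 and 20.2 CPM at 5 dpf, 8.65 to 12.02 CPM at 2 dpf) and CPLX2 (27.4 and 25.4 CPM at 5 dpf, 33.7 to 43.0 CPM at 2 dpf) were not called.

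Of 16 tested myelin genes 7 rose and 2 fell (median 0.65). mbpa, myelin basic protein, had 154 and 154 CPM in the 5 dpf mutants and 1 count in the 2 dpf mutants, a ratio of 8170 (95% counting interval 1470 to 323000). mag, a myelin-associated glycoprotein, had 12.9 and 13.0 CPM at 5 dpf against 0.103 to 0.507 CPM at 2 dpf. Neither gene overlapped between ages. The second basic protein gene, mbpb, had 180.3 and 181 CPM at 5 dpf and already 99.0 to 104 CPM at 2 dpf, less than 2-fold apart. OLIG2, the factor of oligodendrocyte and motor neuron precursors, fell to 6.82 and 7.49 CPM at 5 dpf, against 13.2 to 16.6 CPM at 2 dpf.

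Of 40 tested protocadherins, adhesion proteins of neurons, 3 rose and 5 fell (median 0.12, or −0.19 under library size alone). The largest changes were pcdh11 (2.41 and 2.72 CPM at 5 dpf, 0.217 to 0.701 CPM at 2 dpf) and pcdh1g32 (0.333 and 1.32 CPM at 5 dpf, 4.22 to 7.09 CPM at 2 dpf).

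Muscle genes took up 11.7% to 11.9% of counts at 5 dpf against 5.13% to 5.69% at 2 dpf. Of 73 tested genes 44 rose and 6 fell (median 1.49). actc1b, a striated muscle actin, had 16620 and 17330 CPM in the 5 dpf mutants, against 4660 and 4899 CPM in CDT and 5228 and 5522 CPM in normal-looking mutants at 2 dpf (log2 fold change 1.74, SE 0.06). The calcium buffers pvalb1 and pvalb2 had 22520 and 21400 CPM and 21950 and 21080 CPM at 5 dpf against 7446 to 8611 CPM and 6759 to 7770 CPM at 2 dpf, and the muscle creatine kinase ckma 8302 and 8990 CPM at 5 dpf against 2128 to 2343 CPM at 2 dpf. No library of one age reached the other. Larger factors came from genes low at 2 dpf, such as a fast troponin I, TNNI2 (ENSDARG00000045592; 105 and 98.4 CPM at 5 dpf, 0.412 to 0.561 CPM at 2 dpf), the calcium pump atp2a1l (1453 and 1697 CPM at 5 dpf, 116 to 132 CPM at 2 dpf) and the mitochondrial creatine kinase CKMT2 (5.50, ENSDARG00000069615). The genes that fell included the natriuretic peptides of the heart, nppb (2.41 and 0.906 CPM at 5 dpf, 7.22 to 9.79 CPM at 2 dpf) and nppa (15.3 and 12.8 CPM at 5 dpf, 38.3 to 41.2 CPM at 2 dpf), and tnnt2c (−1.25). The heart muscle genes MYL7 (52.9 and 39.4 CPM at 5 dpf, 45.5 to 55.0 CPM at 2 dpf) and cmlc1 (23.3 and 21.1 CPM at 5 dpf, 22.6 to 28.0 CPM at 2 dpf) overlapped between ages, and so did the myogenic factors MYOD1 and MYF5.

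Cartilage and bone matrix genes rose, 17 of 30 tested, and 2 fell (median 1.101). MATN1, a matrilin of cartilage, had 594 and 599.9 CPM in the 5 dpf mutants, against 0.197 and 0.631 CPM in CDT and 0.618 and 0.217 CPM in normal-looking mutants at 2 dpf (log2 fold change 10.53, SE 0.15). COL10A1, a collagen of hypertrophic cartilage and of osteoblasts in fish, had 243 and 223 CPM at 5 dpf against 8.14 to 9.78 CPM at 2 dpf, and spp1, osteopontin, 15.8 and 17.2 CPM at 5 dpf against 0.206 to 0.631 CPM at 2 dpf. COL2A1 (ENSDARG00000069093), the main cartilage collagen, rose to 946.5 and 1029 CPM at 5 dpf against 266 to 438 CPM at 2 dpf. All 4 were apart between ages. The 2 genes that fell were col9a1b, with 73.8 and 79.5 CPM at 5 dpf against 215 to 339 CPM at 2 dpf, and hapln1a (−1.11), while the chondrocyte factor SOX9 overlapped between ages in both copies. Over all collagen chains, 15 of 54 rose (27.8%, against 18.0% of all genes) and 6 fell (11.1%, against 10.6%), with a median of 0.53. The type I chains col1a1a (2350 and 2532 CPM at 5 dpf, 1468 to 2230 CPM at 2 dpf), COL1A1 (1375 and 1464 CPM at 5 dpf, 799 to 1096 CPM at 2 dpf) and COL1A2 were not called, and col5a3a fell most (0.166 and 0.412 CPM at 5 dpf, 2.68 to 4.12 CPM at 2 dpf).

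In the skin, several keratins were among the genes that rose. Of 41 tested epidermal genes 15 rose and 7 fell (median 0.11, or −0.21 under library size alone). krt5, of basal keratinocytes, had 8079 and 8632 CPM in the 5 dpf mutants, against 3481 and 2974 CPM in CDT and 3121 and 2897 CPM in normal-looking mutants at 2 dpf (log2 fold change 1.42, SE 0.07), and krt91, krt1-19e, krt15 and krt17 rose with log2 fold changes of 1.90, 1.34, 3.78 and 2.52. krt93 was without counts at 2 dpf and at least 36.3-fold higher at 5 dpf. krt4, a keratin of the outer layer, had 20170 and 20490 CPM at 5 dpf against 32670 to 36570 CPM at 2 dpf and did not reach 2-fold, and cyt1l fell to 2792 and 3072 CPM at 5 dpf against 7011 to 7901 CPM at 2 dpf. The annexin anxa1c fell most (55.5 and 47.0 CPM at 5 dpf, 571 to 868 CPM at 2 dpf), followed by a transglutaminase, TGM1 (−2.20, ENSDARG00000101407), and the plakin evpla (−1.81), which builds the cornified layer in mammals. icn2 (−1.47) and, of the plakin family too, a DSP copy (−1.29, ENSDARG00000076673) and PPL (−1.08) also fell. The mucins muc5.1, muc5.2 and muc5.3 of mucous cells rose, whereas AGR2, which such cells also make and whose values are given above, was not called.

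Ion transport genes of skin and kidney rose in part. Of 31 tested ionocyte genes 14 rose and 1 fell (median 0.95). RHCG (ENSDARG00000003203), a channel that excretes ammonia, had 241.5 and 180.4 CPM in the 5 dpf mutants, against 0.919 and 1.19 CPM in CDT and 0.927 and 0.941 CPM in normal-looking mutants at 2 dpf (log2 fold change 7.72, SE 0.15). The sodium pump subunit atp1a1a.4 had 338 and 294 CPM at 5 dpf against 27.6 to 38.7 CPM at 2 dpf, and the carbonic anhydrase ca2, the 1 that fell, 54.6 and 42.0 CPM at 5 dpf against 105 to 131 CPM at 2 dpf. Of 41 tested pronephros genes 16 rose and 2 fell (median 0.53). The proximal tubule scaffold pdzk1 rose to 186 and 167 CPM at 5 dpf, against 5.52 to 6.39 CPM at 2 dpf, and the distal salt carriers SLC12A1 (2.48) and SLC12A3 (2.57) rose. The genes that fell were the developmental factor PAX8 (4.16 and 3.62 CPM at 5 dpf, 7.09 to 9.37 CPM at 2 dpf) and PAX5, which entered the list only through an alias shared with pax2a and lost its call without 5 dpf replicate 2 (−1.23). NPHS1 and WT1, of the glomerulus, were not called.

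Of 37 tested pigment cell genes 4 rose and 8 fell (median −0.18), and most of those that fell are enzymes that make purines or pteridines. PAICS, of purine synthesis, had 200.5 and 167 CPM in the 5 dpf mutants, against 972.5 and 816 CPM in CDT and 749 and 721 CPM in normal-looking mutants at 2 dpf (log2 fold change −2.14, SE 0.10). ATIC (−1.96), GART (−1.28) and IMPDH1 (−1.33, ENSDARG00000029524), of the same pathway, and gch2 (−1.51) and PTS (−1.97), of pteridine synthesis, fell too, whereas the other IMPDH1 copy, ENSDARG00000042336, rose (1.08). Purine synthesis supplies the guanine crystals of iridophores as well as nucleic acids. Of the melanin genes TYR, tyrosinase, fell to 11.7 and 16.9 CPM at 5 dpf, against 32.6 to 40.5 CPM at 2 dpf, as did MITF, the melanocyte factor (−1.01), whereas DCT (155 and 160.5 CPM at 5 dpf, 197.5 to 210.5 CPM at 2 dpf) and pmela (309.5 and 314 CPM at 5 dpf, 241 to 248 CPM at 2 dpf) were not called. pnp4b rose most, to 137 and 86.0 CPM at 5 dpf, against 1.75 to 4.12 CPM at 2 dpf.

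In the ear and swim bladder list, 10 of 30 tested genes rose and 3 fell (median 0.46). stm, a matrix protein of the otolith, had 139 and 133 CPM in the 5 dpf mutants, against 54.6 and 43.0 CPM in CDT and 55.0 and 52.4 CPM in normal-looking mutants at 2 dpf, and otomp, another, 46.5 and 41.8 CPM at 5 dpf against 9.26 to 13.2 CPM at 2 dpf. OTOF (ENSDARG00000020581), of hair cell synapses, rose (1.74), and sftpba, a surfactant protein, rose to 2.66 and 2.06 CPM at 5 dpf, against 0 to 0.217 CPM at 2 dpf. oc90, of the early otolith, fell to 0.166 and 0.823 CPM at 5 dpf, against 1.89 to 5.87 CPM at 2 dpf. pvalb9, a parvalbumin of the list, fell to 44.5 and 34.1 CPM at 5 dpf against 219.7 to 271 CPM at 2 dpf, and LOXHD1 fell with overlapping ages.

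Innate immune genes moved in both directions. Of 32 tested innate immune genes 9 rose (28.1%, against 18.0% of all genes) and 6 fell (18.8%, against 10.6%), with a median of 0.58. MPEG1 (ENSDARG00000043093), the perforin of macrophages, had 14.4 and 13.7 CPM in the 5 dpf mutants, against 2.04 and 2.38 CPM in CDT and 1.65 and 1.66 CPM in normal-looking mutants at 2 dpf, and the granulin grna.1 had 33.3 and 30.6 CPM at 5 dpf against 0.788 to 1.75 CPM at 2 dpf. The second MPEG1 copy, ENSDARG00000055290, had 10.7 and 10.5 CPM at 5 dpf against 6.70 to 8.27 CPM at 2 dpf and did not reach 2-fold. csf1ra, also of the list, overlapped between ages. The antigen presentation chaperones cd74a (3.54) and cd74b (4.004) rose. The lysozyme lyz fell to 1.08 and 0.906 CPM at 5 dpf, against 3.11 to 3.996 CPM at 2 dpf, together with 4 MFAP4 copies and s100a10b, while ptprc, a marker of all leukocytes (2.74 and 1.399 CPM at 5 dpf, 1.34 to 2.46 CPM at 2 dpf), overlapped. Of 12 tested lymphoid and thymus genes 8 rose and 0 fell (median 1.29). RAG1, which rearranges antigen receptors, had 3.74 and 4.77 CPM in the 5 dpf mutants, against 1.18 and 0.771 CPM in CDT and 0.721 and 0.507 CPM in normal-looking mutants at 2 dpf, and the thymic chemokine ccl25a 8.40 and 8.81 CPM at 5 dpf against 0.206 to 0.263 CPM at 2 dpf. Both separated the ages, whereas RAG2 rose with overlapping ages (1.25 and 2.47 CPM at 5 dpf, 0.328 to 1.54 CPM at 2 dpf) and came to 0.84 and lost the call without 5 dpf replicate 2.

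The circadian clock runs on BMAL and CLOCK activators, whose targets per and cry repress them, with NR1D and ROR factors on a second loop and tef, dbp and hlf as output factors. Of 35 tested clock genes 15 rose and 4 fell (median 0.78). NR1D1 had 153 and 149.6 CPM in the 5 dpf mutants, against 3.22 and 4.91 CPM in CDT and 3.50 and 3.11 CPM in normal-looking mutants at 2 dpf (log2 fold change 5.37, SE 0.11). The output factors dbpb (42.3 and 43.6 CPM at 5 dpf, 1.34 to 2.52 CPM at 2 dpf) and dbpa (3.09) rose, as did both PER1 copies (3.92 and 1.31) and PER3 (1.21). The light-induced repressor PER2 fell to 10.5 and 11.9 CPM at 5 dpf, against 34.7 and 28.5 CPM in CDT and 32.9 and 35.4 CPM in normal-looking mutants at 2 dpf (−1.55, SE 0.12), and bmal2 to 2.24 and 2.06 CPM at 5 dpf against 14.4 to 16.5 CPM at 2 dpf. cry3b fell to 4.16 and 2.305 CPM at 5 dpf, against 21.4 to 25.3 CPM at 2 dpf. The BMAL1 and CLOCK copies did not reach 2-fold. The time of day of the harvests is not in the labels, and its part in these values was not tested.

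Of 32 tested genes of heat shock and the glucocorticoid response 13 rose and 0 fell (median 0.64). Among glucocorticoid targets, KLF9 had 121 and 97.5 CPM in the 5 dpf mutants, against 7.09 and 6.38 CPM in CDT and 6.70 and 4.42 CPM in normal-looking mutants at 2 dpf (log2 fold change 4.17, SE 0.12), and FKBP5, a chaperone of the receptor, 313 and 177 CPM at 5 dpf against 15.7 to 24.2 CPM at 2 dpf. PCK1, of glucose synthesis, rose to 642 and 529 CPM at 5 dpf against 48.8 to 81.2 CPM at 2 dpf, and tsc22d3 rose (1.80). Each separated the ages. The receptor NR3C1, with 51.4 and 53.9 CPM at 5 dpf against 46.3 to 50.8 CPM at 2 dpf, was not called (log2 fold change 0.15). It separated the ages in this direction only with TMM scaling, not by library size alone. Among chaperones, HSPA8 (ENSDARG00000068992) had 4399 and 4222 CPM at 5 dpf against 1933 to 2001 CPM at 2 dpf and HSP90AA1 80.1 and 79.5 CPM at 5 dpf against 12.4 to 18.2 CPM at 2 dpf, and hsp70l rose to 29.8 and 21.0 CPM at 5 dpf against 0.985 to 3.86 CPM at 2 dpf. Other chaperones were not called. HSP90AB1 was higher by less than 2-fold (3418 and 3385 CPM at 5 dpf, 2130 to 2328 CPM at 2 dpf), and HSPD1, HSP90B1 and HSPB1 overlapped between ages. HSPE1 was lower by less than 2-fold (127.9 and 120.3 CPM at 5 dpf, 138.4 to 158.5 CPM at 2 dpf). The heat shock factor hsf1 was not called.

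Most genes of energy and protein synthesis shifted up relative to the TMM median, by less than 2-fold. Of 92 tested genes of the respiratory chain and ATP synthase 89 had a positive log2 fold change (median 0.48). Of the 92, 0 fell and 13 rose (14.1%, against 18.0% of all genes). The ATP synthase subunits ATP5F1A (1739 and 1729 CPM at 5 dpf, 611 to 661.5 CPM at 2 dpf) and ATP5F1B (2207 and 2154 CPM at 5 dpf, 849 to 946 CPM at 2 dpf) were among the genes that rose. So were the cytochrome oxidase subunits COX6A1 (4.29) and cox7a1 (3.65). Of 81 cytosolic ribosomal protein genes 74 had a positive log2 fold change (median 0.37), 2 rose and 0 fell. rplp2 rose to 881 and 929 CPM at 5 dpf, against 407 to 461 CPM at 2 dpf. Under library size alone, where the median of all genes was −0.32, the ribosomal median was 0.05, and RPLP0, at 0.18 with TMM, came to −0.14.

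TZ genes, to which rpgrip1l belongs, rose less often than genes at large and fell at a share near that of all genes. The TZ is built from an MKS module of membrane and coiled-coil proteins, an NPHP module, and scaffolds such as CEP290 and Rpgrip1l. Of 29 tested TZ genes 2 rose (6.90%, against 18.0% of all genes) and 4 fell (13.8%, against 10.6%), with a median of −0.28. TMEM237 (ENSDARG00000041735), a membrane protein of the MKS module, had 28.4 and 25.7 CPM in the 5 dpf mutants, against 0.657 and 0.771 CPM in CDT and 1.03 and 0.362 CPM in normal-looking mutants at 2 dpf (log2 fold change 5.301, SE 0.20, edgeR, Benjamini-Hochberg adjusted p = 1.47e-15). Its second copy, ENSDARG00000074248, had 13.0 and 12.8 CPM at 5 dpf against 5.77 to 9.25 CPM at 2 dpf and did not reach 2-fold. rpgrip1, the paralogue of rpgrip1l that acts at the photoreceptor cilium in mammals, rose to 3.08 and 5.02 CPM at 5 dpf, against 1.58 and 1.61 CPM in CDT and 0.927 and 1.74 CPM in normal-looking mutants at 2 dpf (1.44, SE 0.30). Both genes separated the ages.

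Among the TZ genes that fell, TMEM218 had 1.58 and 1.89 CPM in the 5 dpf mutants, against 3.61 and 4.49 CPM in CDT and 4.64 and 6.44 CPM in normal-looking mutants at 2 dpf (log2 fold change −1.45, SE 0.27). The log2 fold changes of iqcb1 and TMEM17, which also fell, were −1.28 and −1.12. By level, iqcb1, also known as NPHP5, had 2.83 and 2.22 CPM at 5 dpf against 4.79 to 7.82 CPM at 2 dpf, and TMEM17 1.83 and 2.39 CPM at 5 dpf against 4.198 to 5.33 CPM at 2 dpf. None of these 3 overlapped between ages. Of the genes not called, CEP290 had 11.8 and 10.6 CPM at 5 dpf against 8.54 to 10.9 CPM at 2 dpf, TMEM67 8.23 and 8.07 CPM at 5 dpf against 5.12 to 7.005 CPM at 2 dpf, CC2D2A 6.65 and 8.64 CPM at 5 dpf against 6.96 to 9.27 CPM at 2 dpf, MKS1 4.16 and 6.01 CPM at 5 dpf against 5.86 to 7.62 CPM at 2 dpf and nphp4 2.74 and 2.72 CPM at 5 dpf against 2.38 to 4.07 CPM at 2 dpf. The values of rpgrip1l were given above. The others not called, tctn1, TMEM216, B9D1 and TMEM231 among them, had log2 fold changes between −0.89 (CSPP1) and 0.55 (tmem107).

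**Figure D3:**
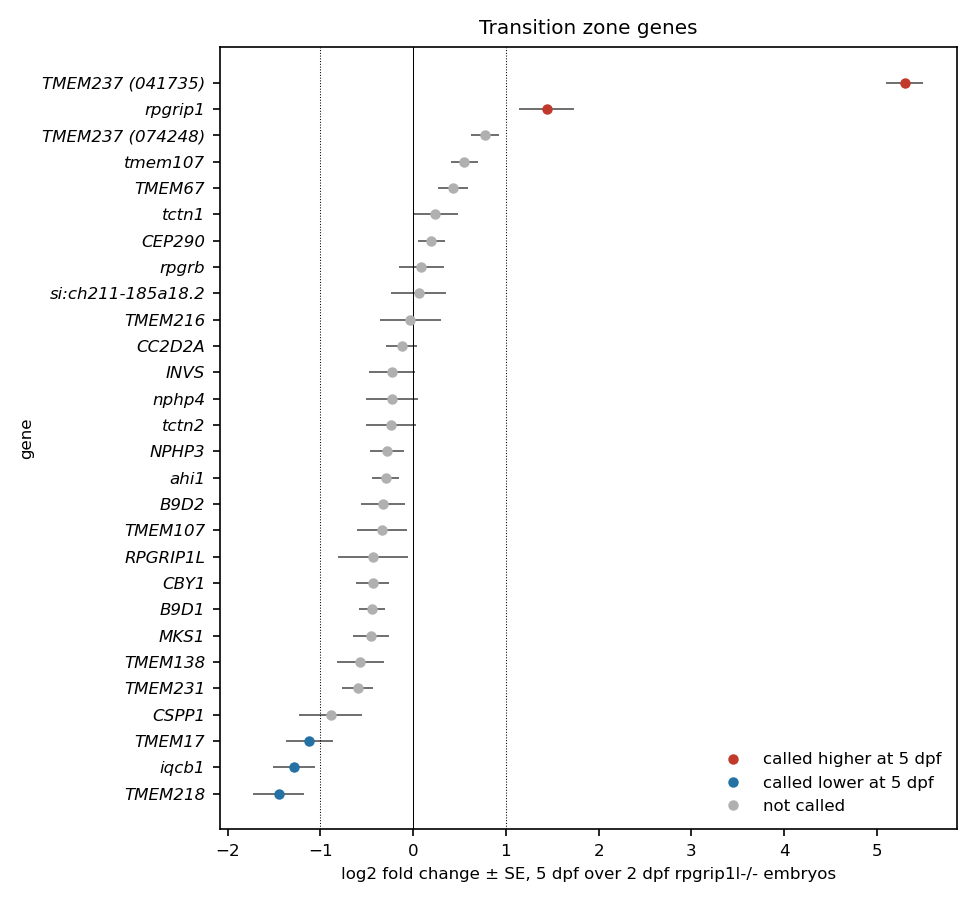
Age change of 28 TZ genes in rpgrip1l-/- embryos. The x axis is the log2 fold change of 5 dpf over 2 dpf with its SE, dotted lines mark 2-fold, and colours show genes that rose, fell or were not called. TMEM237 (5.301) stands far from the others, which lie between −1.45 (TMEM218) and 1.44 (rpgrip1).

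Cilium assembly genes were close to level. Of 41 tested genes of intraflagellar transport (IFT) and the BBSome, the carriers that move cargo along and out of the cilium, 2 rose and 0 fell (median −0.09). These were arl13a, a copy of the ciliary GTPase, with 6.98 and 6.67 CPM in the 5 dpf mutants, against 1.84 to 2.24 CPM at 2 dpf, and BBS5 with 8.81 and 7.66 CPM at 5 dpf against 3.71 to 4.34 CPM at 2 dpf. IFT88 had 7.57 and 7.24 CPM at 5 dpf and 5.98 to 8.61 CPM at 2 dpf, and IFT172 10.98 and 13.0 CPM at 5 dpf, 8.76 to 11.1 CPM at 2 dpf. Of 96 tested genes of motile cilia 5 rose (5.21%, against 18.0% of all genes) and 10 fell (10.4%, against 10.6%), with a median of −0.04. dnaaf1, a dynein assembly factor, rose to 6.40 and 5.52 CPM at 5 dpf, against 1.31 to 2.58 CPM at 2 dpf, while the dynein heavy chain DNAH11 fell to 4.49 and 2.63 CPM at 5 dpf against 7.01 to 10.6 CPM at 2 dpf and ccdc40, of the axonemal ruler, to 2.24 and 1.98 CPM at 5 dpf against 4.33 to 5.26 CPM at 2 dpf. FOXJ1, the master regulator of motile cilia, overlapped (6.32 and 4.53 CPM at 5 dpf, 5.25 to 6.66 CPM at 2 dpf).

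Genes of the body axis pathway downstream of motile cilia were called in both directions. The Reissner fiber, an SCO-spondin thread in the central canal, acts through cells that contact the cerebrospinal fluid to raise urotensin peptides, which straighten the body axis in zebrafish. Of 15 tested genes 3 rose (20.0%, against 18.0% of all genes) and 3 fell (20.0%, against 10.6%), with a median of −0.18. urp2, a urotensin-related peptide, had 3.49 and 5.76 CPM in the 5 dpf mutants, against 0.722 and 0.280 CPM in CDT and 1.03 and 1.52 CPM in normal-looking mutants at 2 dpf (log2 fold change 2.49, SE 0.34, edgeR, Benjamini-Hochberg adjusted p = 1.46e-06). Both 5 dpf pools were above all 2 dpf pools. urp1 had 4.49 and 4.28 CPM at 5 dpf against 1.71 to 3.64 CPM at 2 dpf and was not called. ADGRG6, an adhesion receptor needed for axis straightness and myelin, and MYO3B, a myosin of these cells, rose (1.06 and 2.21). sspo, SCO-spondin, had 0.499 and 0.329 CPM at 5 dpf against 0.721 to 1.25 CPM at 2 dpf, a fall at the threshold (log2 fold change −1.26, SE 0.53; edgeR, Benjamini-Hochberg adjusted p = 0.0441). Over its alternatives the adjusted p of edgeR or DESeq2 ran from 0.0117 to 0.245, and without 5 dpf replicate 2 the log2 fold change of sspo was −0.99 and not called. The urotensin receptor gene uts2r4 was without counts at 5 dpf, at least 2.71-fold lower.

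The same change with age was then compared between mutants and WT, in a fit of all 10 libraries and with CPM scaled over all 10. Of 21016 genes tested, the difference of the log2 changes, mutant minus WT, was positive in 3076 (14.6%) and negative in 1837 (8.74%) in edgeR's test of the difference itself, at a Benjamini-Hochberg adjusted p under 0.05 and with no minimum fold. A positive difference means a stronger rise or weaker fall in mutants. It can come from a gap between the genotypes at either age. The split rests on the scale: the median difference was 0.06 with TMM, −0.03 with upper quartile scaling, which called 2201 and 2335 genes, and −0.36 under library size alone, which called 634 and 5288. The single differences named below kept their sign and their call under both of these scales, except tsc22d3. Mutants and WT had different parents, and the labels give no time of day of harvest for either genotype. Whether parents, staging or time of day at harvest moved these values, those of clock genes included, was not tested.

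Ribosomal protein genes differed as a block. Their median change was 0.37 in mutants and −0.39 in WT, and 77 of 81 differences were positive and 0 negative, or 61 and 1 under library size alone. RPS2, a small subunit protein, had 10330 and 9688 CPM in mutants at 5 dpf, 6354 and 7407 CPM in CDT and 7299 and 6765 CPM in normal-looking mutants at 2 dpf. WT had 12310 and 10710 CPM at 5 dpf and 14500 and 14980 CPM at 2 dpf. Its 5 dpf values were above its 2 dpf values in mutants, by less than 2-fold, and below them in WT (difference 0.88, SE 0.11). Respiratory chain genes had medians of 0.48 and −0.07 with 75 of 92 positive, which came to 12 under library size alone. Cell division genes had median changes of −0.63 in mutants and −1.15 in WT, with 19 of 32 differences positive and 0 negative, but 4 and 2 under library size alone.

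Collagens and clock genes differed in the other direction. Collagen chains had a median change of 0.55 in mutants and 1.06 in WT, with 0 of 55 differences positive and 26 negative, or 0 and 40 under library size alone. col17a1a, of the skin hemidesmosome, had 361 and 391 CPM in mutants at 5 dpf against 187, 143, 177 and 146 CPM at 2 dpf, and 299.1 and 299.3 CPM in WT at 5 dpf against 67.8 and 68.7 CPM at 2 dpf (difference −0.93, SE 0.15). Its 5 dpf values were above its 2 dpf values in both genotypes. Clock genes had medians of 0.68 in mutants and 1.44 in WT, with 1 of 36 differences positive and 25 negative, or 0 and 28 under library size alone. PER2 had 9.45 and 10.8 CPM in mutants at 5 dpf, 31.2 and 25.9 CPM in CDT and 29.6 and 32.1 CPM in normal-looking mutants at 2 dpf, whereas WT had 28.1 and 49.1 CPM at 5 dpf and 10.3 and 12.5 CPM at 2 dpf. The 5 dpf libraries were the lower ones in mutants and the higher ones in WT (difference −3.32, SE 0.25, edgeR, Benjamini-Hochberg adjusted p = 5.48e-10). cry5 (difference −1.79) and tefa (−1.27) also went opposite ways, while PER3 (−1.53) was higher at 5 dpf in both. Among glucocorticoid targets FKBP5 (−1.46) and KLF9 (−0.90) rose in both, and less in mutants, whereas tsc22d3 rose in both and more in mutants (difference 0.50). The difference of tsc22d3 was 0.073 and not called under library size alone, and its call was lost without 5 dpf mutant replicate 2 or WT 2 dpf replicate 2 (0.40 and 0.43).

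**Figure D4:**
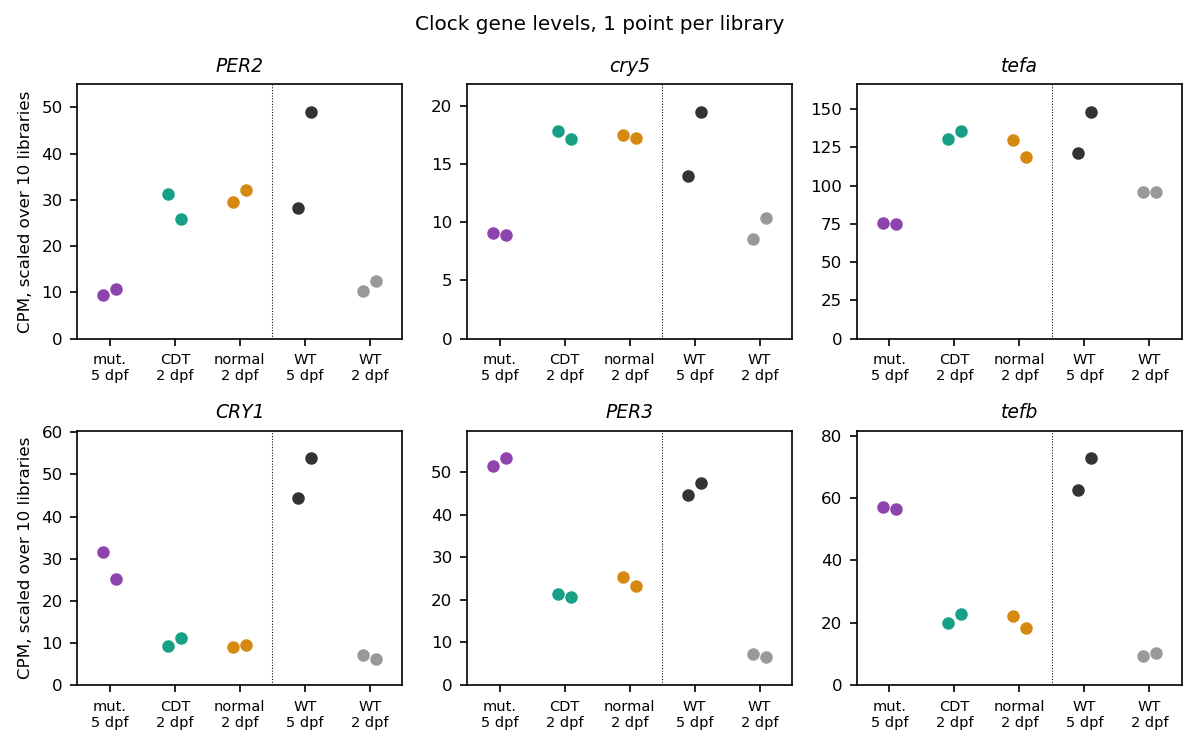
Levels of 6 clock genes in all 10 libraries, 1 point per library; the y axis is CPM scaled over the 10 libraries, starting at 0, and groups are mutants at 5 dpf, CDT and normal-looking mutants at 2 dpf, and WT at 5 and 2 dpf. For PER2, cry5 and tefa the 5 dpf points lie below the 2 dpf points in mutants and above them in WT; CRY1 (ENSDARG00000011583), PER3 and tefb are higher at 5 dpf in both genotypes.

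Single genes of the axis, collagen folding and pigment lists stood out. urp2 had 3.15 and 5.21 CPM in mutants at 5 dpf, 0.649 and 0.254 CPM in CDT and 0.928 and 1.38 CPM in normal-looking mutants at 2 dpf. In WT it had 1.65 and 2.396 CPM at 5 dpf and 1.88 and 1.78 CPM at 2 dpf (difference 2.35, SE 0.52). At 2 dpf all 4 mutant libraries were below both WT libraries, and at 5 dpf both were above. SERPINH1 (ENSDARG00000019949), a collagen chaperone, had 68.2 and 87.0 CPM in mutants at 5 dpf against 75.8, 77.4, 67.6 and 55.3 CPM at 2 dpf, and 35.3 and 24.7 CPM in WT at 5 dpf against 144 and 139 CPM at 2 dpf (difference 2.42, SE 0.17). Mutant ages overlapped and WT ages did not. TYR was lower at 5 dpf in mutants, with 10.6 and 15.3 CPM against 36.4, 30.2, 29.3 and 30.03 CPM at 2 dpf, but overlapped in WT, with 20.5 and 25.9 CPM at 5 dpf and 21.3 and 20.2 CPM at 2 dpf (difference −1.44, SE 0.20).

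For the genes of late onset the WT libraries bear on the comparison. Of 44 genes with at most 3 summed counts in the 2 dpf mutants and at least 20 CPM in 5 dpf WT, all had counts in 2 dpf WT, at 0.490% to 1.69% of their 5 dpf WT level (quartiles 0.750% and 1.15%). The trypsin gene prss59.1, for example, had 1498 and 664 CPM in mutants at 5 dpf and 0 counts at 2 dpf, whereas WT had 3095 and 2172 CPM at 5 dpf and 24.4 and 29.8 CPM at 2 dpf. Of the 44 genes, 34 had a positive difference called. They were chosen by 2 dpf mutant and 5 dpf WT values that enter the difference, so this count is not a separate result. The exocrine pancreas list had 18 of 28 positive with medians of 10.1 in mutants and 6.64 in WT. Whether reads carried over between WT libraries added to the 2 dpf WT values of these genes, and so to their differences, was not tested. In all, 52 of the 3076 positive differences belonged to genes with at most 3 summed counts in the 2 dpf mutants. Genes above this cut can show the same pattern, and carry-over was not tested for them either. The trypsin prss59.2, with 2, 5, 2 and 2 counts in the 2 dpf mutant libraries and a difference of 6.95, is an example.

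**Figure D5:**
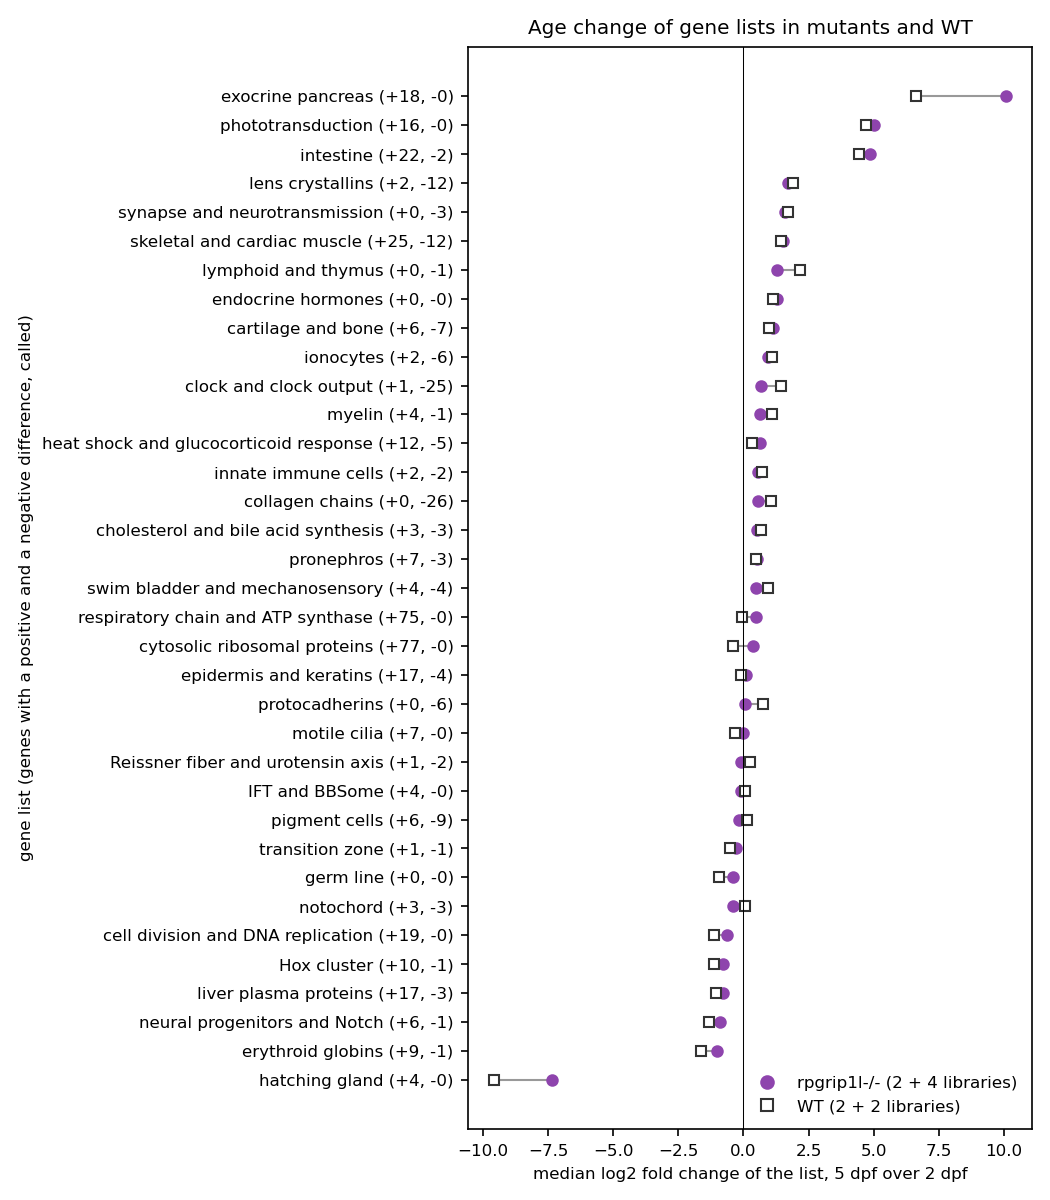
Median age change of each gene list in mutants (filled circles, 2 and 4 libraries) and WT (open squares, 2 and 2 libraries). The x axis is the median log2 fold change of 5 dpf over 2 dpf in the fit of all 10 libraries, and the numbers behind each list name are its called positive and negative differences of mutants minus WT. Exocrine pancreas (10.1 and 6.64) and hatching gland (−7.35 and −9.59) lie furthest apart. Ribosomal proteins (0.37 and −0.39), clock genes (0.68 and 1.44) and collagens (0.55 and 1.06) are further examples of a gap. The 2 medians of a list can fall on different genes. Lymphoid and thymus genes (1.29 and 2.18) had a median difference per gene of −0.21, with 0 positive and 1 negative called. Hatching gland genes had one of 1.27, and their WT median is that of ctslb, which was without counts in 5 dpf mutants.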

How the data were processed

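RNA was sequenced from pools of 30 to 35 whole zebrafish embryos as paired 150 bp reads. Per their notes and methods, the authors trimmed with Trim Galore 0.4.4, used STAR 2.7.3a for alignment to GRCz11 and deposited raw counts per gene from HTSeq 0.12.3; the annotation release and whether the kit kept strand are not given in the sources used here, so antisense pairs cannot be separated. The 5 counter rows of each file were left out; 42.5% to 44.0% of the mutant read pairs lay on genes and 46.1% to 47.3% on no feature. Names came from a table supplied with the files (28988 of 32057 IDs, 1770 symbols on several IDs), and IDs are given where a symbol is shared. No genome or sequence was used.

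Counts of the 6 mutant libraries were fitted in edgeR 4.0.16 (R 4.3.3, limma 3.58.1; TMM, filterByExpr, quasi-likelihood), with 5 dpf against the mean of both 2 dpf groups and 3 residual degrees of freedom. A gene was called at an adjusted p under 0.05 and 2-fold or more. The difference between genotypes was a contrast in all 10 libraries (5 residual degrees of freedom), called at an adjusted p under 0.05. Both fits were run on simulated counts in which few genes changed, so the scaling was not checked by them. At an adjusted p under 0.05 the age fit called 95 of 104 2-fold and 96 of 96 4-fold changes, and 5 unchanged genes. The fit of the difference called 68 of 98 2-fold and 97 of 102 4-fold changes, and 9 unchanged genes. A gene without counts at one age was given a bound from a floor of 3 counts per library; intervals and floors cover counting error only.

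The groups, gene lists and genes were chosen with earlier results of these data known. Named genes were the 10 largest rises and falls with at least 10 CPM at the higher age and no overlap, the 3 most abundant members and the largest called rise and fall of each of 35 lists, the TZ genes, and the 5 largest differences in each direction among genes with at least 10 CPM in a group; any other gene was chosen after its values were seen, and a few genes that the rule names are not reported here. Of 1097 names in 30 lists 1018 matched, and 5 lists came from symbol patterns. PRPF38A entered the myelin list, OGFOD3 the urotensin list and PAX5 the pronephros list by an alias, and of these only PAX5 was called. Names without a match were also tried without their copy suffix, and 1 name could bring in several IDs, as mfap4.1 did for the MFAP4 copies. Both CEL copies of the pancreas list, which rose, entered under the elastase name cela1.1. Alternatives were other scalings, filters, a replicate block, the 2 dpf groups apart or pooled, DESeq2 1.42.0, fold criteria and leaving out each library. Same-numbered mutant libraries did not deviate together (correlations −0.003, 0.012 and 0.012).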

Additional observations from a re-analysis of the deposited data

Results flagged for a closer look

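The change with age was tested for a difference between mutants and WT, and 3076 genes had a positive and 1837 a negative difference. Among genes with at least 10 CPM in a group, the largest positive ones were the pancreatic proteases prss59.1 (10.28 on the log2 scale), ctrb.1 (7.98), ctrb.3 (7.87), ctrb.2 (7.75) and prss59.2 (6.95), whose 2 dpf mutant libraries held few or no counts, so that these sizes depend on the prior count. Carry-over of reads between WT libraries was not tested for these genes. SERPINH1 (ENSDARG00000019949; 2.42), urp2 (2.35), RPS2 (0.88) and tsc22d3 (0.50) were also positive. Under the same minimum the largest negative ones were ENSDARG00000068947 (−5.93), which was without counts in the 5 dpf mutants, PER2 (−3.32), slc47a2.1 (−3.10), zgc:158463 (−2.78) and lonrf4 (−2.31). Further negative differences were cry5 (−1.79), PER3 (−1.53), FKBP5 (−1.46), TYR (−1.44), tefa (−1.27), col17a1a (−0.93) and KLF9 (−0.90). What lies behind these differences was not tested.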

How the results depend on the processing

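The counts of 3698 genes higher and 2189 lower depended on the fold criterion, scaling and filters. Library size alone gave 2807 higher and 3913 lower. A minimum of 10 counts in every mutant library, which removes genes absent at one age, gave 2289 and 1416. Dropping the fold minimum gave 6805 and 6218, and testing against 2-fold (glmTreat) gave 1016 lower. DESeq2 (3573 and 1956), upper quartile scaling (3464 and 2462), no filter (4075 and 2281), the 10-library fit (3828 and 2192), CDT alone (3570 and 2150), normal-looking mutants alone (3716 and 2154) and the 2 dpf mutants as 1 group (3632 and 2203) stayed within 1.5-fold. Leaving out 1 mutant library gave 3682 to 3850 higher and 2064 to 2181 lower. The replicate block gave 3688 and 2156, and 3039 positive and 1820 negative differences; the numbers did not pair the libraries. The differences numbered 634 positive and 5288 negative under library size alone, and 1133 negative with DESeq2. Leaving out 1 library gave 2130 to 3065 positive and 1160 to 1730 negative ones, the 1160 without WT 2 dpf replicate 2. Several genes examined, positive but not called with TMM, turned negative under library size alone. Examples are cnp (−0.11), COL11A1 (−0.047), npsn (−0.29), TYRP1 (ENSDARG00000056151, −0.14), spag1a (−0.26), RPLP0 (−0.14), pcdh2g28 (−0.013) and alpi.1 (−0.31), and the list is not complete. The insulin gene ins ranged from −0.98 to 1.22 when a 5 dpf library was left out. Of the named differences, slc47a2.1 lost its call under 6 settings (−3.32 to −2.11) and tsc22d3 under 3 (0.073 to 0.43), and the others kept sign and call. The cause of these shifts was not tested. With 2 libraries at 5 dpf, genes of a few counts, such as sspo and many TZ genes, were measured imprecisely.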

Other observations

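Beyond the lists, abundant genes of chromatin packing fell in the mutants. HMGB2 (ENSDARG00000029722), a DNA-bending protein, had 517 and 529 CPM at 5 dpf, against 1599, 1813, 1817 and 1880 CPM in the 4 libraries at 2 dpf (log2 fold change −1.77, SE 0.08). HMGN2, a nucleosome-binding protein, had 944 and 1025 CPM at 5 dpf against 2473, 2765, 2533 and 2788 CPM at 2 dpf. No 5 dpf library reached a 2 dpf library in either gene. hmga1a (−1.19), hmgn1a (−1.53), the histone variants h3f3a (−1.11) and h2az2b (−1.34), and ptmab, a prothymosin (−1.22), fell by similar amounts. These genes were chosen after their values were seen, among the largest changes in CPM.

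Other large changes in CPM belonged to none of the lists. BHMT, which remethylates homocysteine, had 1657 and 1624 CPM at 5 dpf, against 4134, 3749, 4311 and 3690 CPM at 2 dpf. aep1 fell to 389 and 399 CPM at 5 dpf, against 2231, 2385, 2221 and 1969 CPM at 2 dpf. Both fell without overlap between ages. In the other direction zgc:136930 had 3854 and 4291 CPM at 5 dpf against 247 to 329.8 CPM at 2 dpf, and si:dkey-183i3.5 had 3780 and 4046 CPM against 241 to 337 CPM. Neither carries a gene name in the table used here.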
